A study of Mus musculus with 20 samples.

Results

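Target genes of the transcription factor NRF2 were followed in N2A cells with and without exposure to a near-infrared pulsed laser. They were Gclc, Gclm, Slc7a11, Txnrd1, Srxn1, Hmox1, Nqo1, G6pdx, Sqstm1 and Osgin1, 10 of the 34083 genes to which reads were summed. They were given as a named list of the pathway, and the list was drawn up with earlier results of these data known. N2A is a mouse neuroblastoma line, and bulk RNA-seq was measured 1 h after exposure in 20 libraries of 2 batches. Batch 1 held 5 groups of 3 libraries. NC, the negative control, was not exposed, and I0-E0, I0-E2 and I0-E4 received the same laser intensity at a dwelling time of 2, 10 and 20 µs per pixel, so that the fluency, the energy per area, stood at 1, 5 and 10 relative to I0-E0. I2-E2 received 5 times the intensity of I0-E0 at 2 µs per pixel, which gave the relative fluency of 5. Batch 2 held 2 unexposed NC libraries and 3 libraries of I3-E3-SRS, a near-burning setting with 2 synchronised lasers at 2 µs per pixel. All groups were cells of 1 line in the same medium, without a genetic change or a drug. The methods of the study describe whole wells exposed and unexposed wells lysed alongside, while the labels do not tie libraries to wells or say that wells came from separate cultures, and a p-value then covers only the variation from library to library, part of which may be technical.

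NRF2, encoded by Nfe2l2, is kept low in resting cells because KEAP1 hands it to a CUL3 ubiquitin ligase for destruction. Oxidants and electrophiles modify cysteines of KEAP1, NRF2 then builds up, pairs with a small MAF protein and binds antioxidant response elements, from which the repressor BACH1 is displaced. Its targets make glutathione (Gclc, Gclm and the cystine importer gene Slc7a11), run the thioredoxin and peroxiredoxin cycle (Txnrd1, Srxn1), degrade haem and reduce quinones (Hmox1, Nqo1), supply NADPH (G6pdx), and link oxidative stress to autophagy (Sqstm1) and growth inhibition (Osgin1). Laser light can produce reactive oxygen species in cells, and the comparisons below address whether the transcripts of this pathway moved with exposure, with intensity, with fluency or between the batches.

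The genes lie on several chromosomes of GRCm38. Gclc is at chr9:77754535-77794485, Gclm at chr3:122245557-122270732 and Slc7a11 at chr3:49892526-50443614. Txnrd1 is at chr10:82833951-82897712 and Srxn1 at chr2:152105516-152111376. Hmox1 is at chr8:75093621-75100589, Nqo1 at chr8:107388225-107403206 and Osgin1 at chr8:119434124-119446256. G6pdx is at chrX:74409483-74429194 and Sqstm1 at chr11:50199366-50210827. All 10 are protein-coding genes.

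The antioxidant response element has the core TGACNNNGC, and a looser form, TGANNNNGC, contains every core match. Both were searched on either strand in RefSeq windows of 300 bases around annotated starts (250 before, 50 after, build GRCm38.p6), which were at hand for 8 of the 10 genes, all but Hmox1 and Gclc. These 8 genes had 10 windows. The core stood in 4 of the 10, those of Gclm, Srxn1 and G6pdx and 1 of Txnrd1, where 12.4% of all 32851 windows hold it. The looser form stood in 7 of the 10, from 6 genes, where 41.3% of all windows hold it. No match was found in the windows of Nqo1 and Sqstm1, which says nothing of elements farther away. The bases upstream of the start are shown 5′ to 3′ on the strand of the gene, with matches to the looser form on either strand in capitals. They are those of the 2 genes with the largest difference between the NC groups of the batches on counts and of the tested gene with the smallest. On TPM values Nqo1 had the smallest difference, or Gclm, as on counts, with NC batch 2 replicate 1 left out. The windows are chr3:50443614-50443863 on the minus strand for Slc7a11, chr2:152105274-152105523 on the plus strand for Srxn1 and chr3:122245307-122245556 on the plus strand for Gclm.
Slc7a11: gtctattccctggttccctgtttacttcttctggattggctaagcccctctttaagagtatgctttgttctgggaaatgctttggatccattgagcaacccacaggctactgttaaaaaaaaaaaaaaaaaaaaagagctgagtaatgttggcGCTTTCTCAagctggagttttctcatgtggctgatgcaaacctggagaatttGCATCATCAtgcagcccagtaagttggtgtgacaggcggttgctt
Srxn1: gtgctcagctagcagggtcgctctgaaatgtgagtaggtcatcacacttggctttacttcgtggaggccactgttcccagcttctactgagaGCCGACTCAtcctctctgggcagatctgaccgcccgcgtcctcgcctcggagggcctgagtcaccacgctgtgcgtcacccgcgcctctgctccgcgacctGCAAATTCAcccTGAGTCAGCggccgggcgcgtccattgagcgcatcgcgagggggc
Gclm: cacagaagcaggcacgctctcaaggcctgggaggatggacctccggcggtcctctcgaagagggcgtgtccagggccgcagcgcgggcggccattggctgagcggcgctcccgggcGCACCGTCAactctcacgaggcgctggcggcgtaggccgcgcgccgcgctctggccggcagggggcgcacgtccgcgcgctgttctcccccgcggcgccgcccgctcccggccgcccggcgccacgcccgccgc
In Gclm the capitals are the core, TGACGGTGC on the opposite strand, from 134 bases before the start. In Srxn1 they include TGAGTCAGC on the strand of the gene, from 45 bases before the start, and the core of this gene, TGACCTAGC on the opposite strand, begins at base 29 after the start and is not shown. These matches describe the letters of the windows and were not tested as binding sites.

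The total estimated count of a library was 5623685 to 8636798 in batch 1 and 5473588 to 12698770 in batch 2. Markers of N2A and neuronal identity summed to 2318 to 2607 CPM (counts scaled to library size) in batch 1 and 2517 to 2700 CPM in batch 2, and 9 of 11 reached 1 CPM, with Nefl and Nefm at or near 0 throughout. The 6 marker lists of other cell kinds (glia, fibroblasts, endothelium, epithelium, macrophages, erythroid cells) each summed to at most 17.6 CPM in any library. Csf1r, a macrophage receptor gene, was at 0 to 1.12 CPM in batch 1 and 1.96 to 6.58 CPM in batch 2, while the other 4 macrophage markers stayed at or below 1.24 CPM. In bulk RNA, a change in the number of cells of a kind and a change in RNA per cell cannot be told apart.

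One library stood apart. Spearman correlations of gene levels were 0.977 to 0.978 between NC batch 2 replicate 1 and the other libraries of its batch, and 0.995 to 0.996 among those 4. Its estimates also divided members among transcripts differently. Sqstm1-205, a coding transcript, took 14.8% of the Sqstm1 reads there and 0% in the 19 other libraries, and Gclm-207 took 10.1% of the Gclm reads there and at most 1.99% elsewhere. I0-E0 replicate 3 was also set apart by its breadth, with at least 1 estimated read for 19940 genes against 15979 to 17173 in the other libraries of batch 1, and without it 0 members passed in I0-E0 as well. The main results between the batches that use NC batch 2 replicate 1, and Slc7a11 in I3-E3-SRS, are therefore given with and without it.

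The members spanned a wide range of levels. Per length, in TPM (transcript abundances scaled to a fixed sum), Txnrd1 was at 215 ± 3.59 (SD, n = 3) in NC of batch 1 and Sqstm1 at 212 ± 6.16, levels that did not differ beyond their spread. Gclm followed at 161 ± 8.02 TPM, G6pdx at 89.6 ± 1.52, Hmox1 at 52.7 ± 2.84 and Gclc at 45.3 ± 1.71 TPM. The next were Nqo1 at 8.35 ± 0.873, Slc7a11 at 7.24 ± 0.309 and Srxn1 at 5.94 ± 1.75 TPM, neighbours that did not differ beyond their spread. Osgin1 had 0 to 8 reads in any library, too few for a test, so 9 members were tested. Genes of the glutathione and thioredoxin branches stood near both ends of the order.

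**Figure D1:**
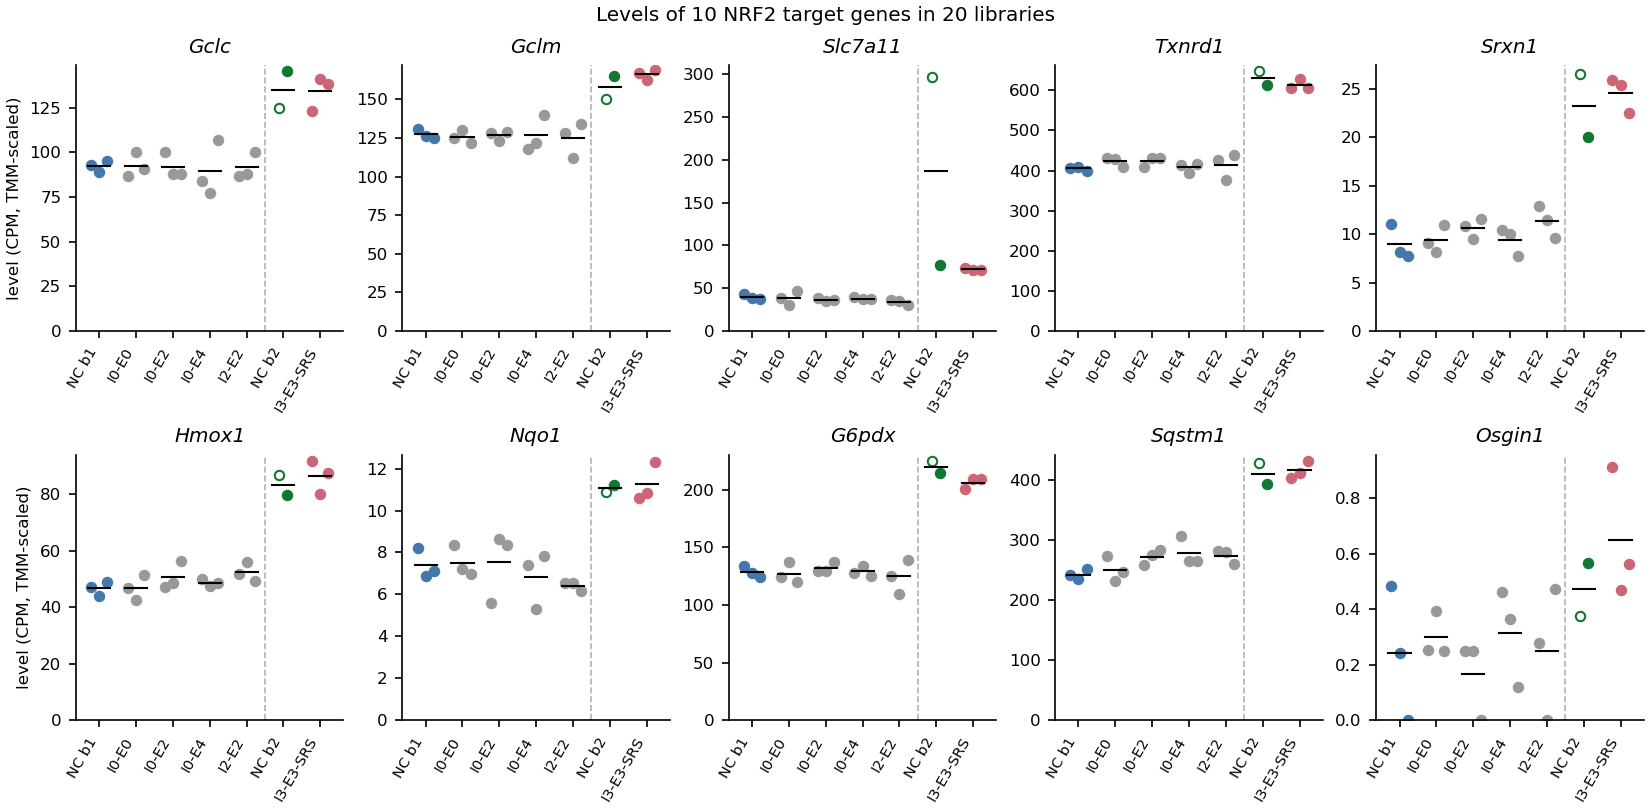
Levels of the 10 NRF2 target genes in CPM (vertical axes from 0, 1 gene per panel) for 7 groups of libraries (horizontal axis; b1 and b2 are batch 1 and batch 2, separated by the dashed line). Points are libraries, bars are group means and the open point is NC batch 2 replicate 1; in the 9 tested genes all 5 points of batch 2 lie above all 15 of batch 1 in CPM (in TPM this holds for 3 genes), and Slc7a11 of the open point is at 297 CPM.

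Exposure left the tested NRF2 targets near their NC levels in batch 1. None of the 9 passed a false discovery rate of 0.05 by edgeR's quasi-likelihood test in I2-E2 or in any of the 3 I0 groups, and of all 12296 genes tested 0 passed in each of these comparisons (0%). The 4 comparisons share the same 3 NC libraries. For I0-E0, I0-E2, I0-E4 and then I2-E2, the unadjusted p was under 0.05 for 413, 413, 973 and 884 genes, DESeq2 called 1, 0, 1 and 0 genes and limma-voom called 0 in each. The log2 fold changes of the 9 members lay between -0.05 and 0.06 in I0-E0, between -0.10 and 0.24 in I0-E2, between -0.10 and 0.20 in I0-E4 and between -0.22 and 0.33 in I2-E2. Their medians were 0.01, 0.04, 0.01 and -0.01, against medians of all genes within 0.01 of 0. The 95% confidence intervals were widest in I2-E2, where they reached from 0.654-fold to 1.62-fold, and in I0-E0 they stayed between 0.773-fold and 1.35-fold.

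Among the glutathione genes, Gclc and Gclm encode the catalytic and the modifier subunit of glutamate-cysteine ligase, the first step of glutathione synthesis. Gclc measured 93.1, 89.2 and 95 CPM in NC replicates 1 to 3 and 77.3 to 106.9 CPM (median 88.1) over the 12 exposed libraries of the batch. Gclm measured 131, 127 and 125 CPM in NC and 112 to 140.1 CPM when exposed. For both genes the exposed libraries lay on either side of NC, and every log2 fold change against NC was within 0.04 of 0. Slc7a11, the cystine importer xCT, measured 43.1, 38.2 and 36.9 CPM in NC and 36.5, 35.2 and 30.4 CPM in I2-E2, so that the 3 I2-E2 libraries all lay below NC. The log2 fold change was -0.22 (standard error 0.12, adjusted p = 0.733 from edgeR), and in I0-E0, which held values from 29.8 to 46.5 CPM, the same gene overlapped NC on both sides.

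In the thioredoxin branch, Txnrd1, which encodes cytosolic thioredoxin reductase, measured 407, 409 and 399 CPM in NC and 378 to 438 CPM over the exposed libraries. It was the member with the smallest standard errors, and its log2 fold changes were 0.01 to 0.06 with standard errors of 0.06. Srxn1, the sulfiredoxin gene whose product restores over-oxidised peroxiredoxins, measured 11.1, 8.11 and 7.72 CPM in NC and 12.9, 11.5 and 9.57 CPM in I2-E2. The groups overlapped, and its log2 fold change of 0.33 was the largest of the batch (standard error 0.18, adjusted p = 0.733 from edgeR). The Srxn1 values rest on 50 to 98 reads per library in batch 1.

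Hmox1, which encodes haem oxygenase 1 and answers heat shock and BACH1 as well as NRF2, measured 47.2, 44.1 and 49.0 CPM in NC and 51.8, 56.0 and 49.4 CPM in I2-E2. All 3 I2-E2 libraries lay above NC, the closest by under 1 CPM, and the log2 fold change was 0.17 (standard error 0.09, adjusted p = 0.724 from edgeR). Nqo1, the quinone reductase gene, measured 8.19, 6.90 and 7.11 CPM in NC and 6.53, 6.54 and 6.14 CPM in I2-E2, all below NC (log2 fold change -0.21, standard error 0.19). Nqo1 had 29 to 71 reads per library in batch 1, and this difference did not pass (adjusted p = 0.820 from edgeR). G6pdx, the X-linked gene of the enzyme that starts the pentose phosphate pathway and yields NADPH, measured 134, 127 and 124 CPM in NC and 110 to 139 CPM when exposed.

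Sqstm1, which encodes the autophagy receptor p62, a protein that binds KEAP1, was the member with the smallest p-values in batch 1. It measured 242, 236 and 252 CPM in NC and 274, 232 and 247 CPM in I0-E0, which overlap. In I0-E2 it measured 259, 275 and 284 CPM, in I0-E4 307, 266 and 266 CPM, and in I2-E2 282, 281 and 261 CPM. All 9 libraries of these 3 groups lay above the 3 NC libraries. In the order just given the log2 fold changes were 0.05, 0.17, 0.20 and 0.18, each with a standard error of 0.07, and the adjusted p-values from edgeR were 1.00, 0.993, 0.612 and 0.640. A linear trend on relative fluency over NC and the 3 I0 groups gave a log2 change of 0.20 between 0 and 10 (standard error 0.06, unadjusted p = 0.00537, adjusted p = 0.665 from edgeR), and 0.13 without I0-E4 replicate 1. Of the 31-base words of Sqstm1 transcripts 83.6% occur in no other gene. The gene that shares more of the rest than any other is Mrnip, its neighbour on the opposite strand. Mrnip was at 8.84 to 9.42 CPM in NC and 9.03 to 13.3 CPM in I0-E4. Whether the counting used strand is not given in the sources used here.

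**Figure D2:**
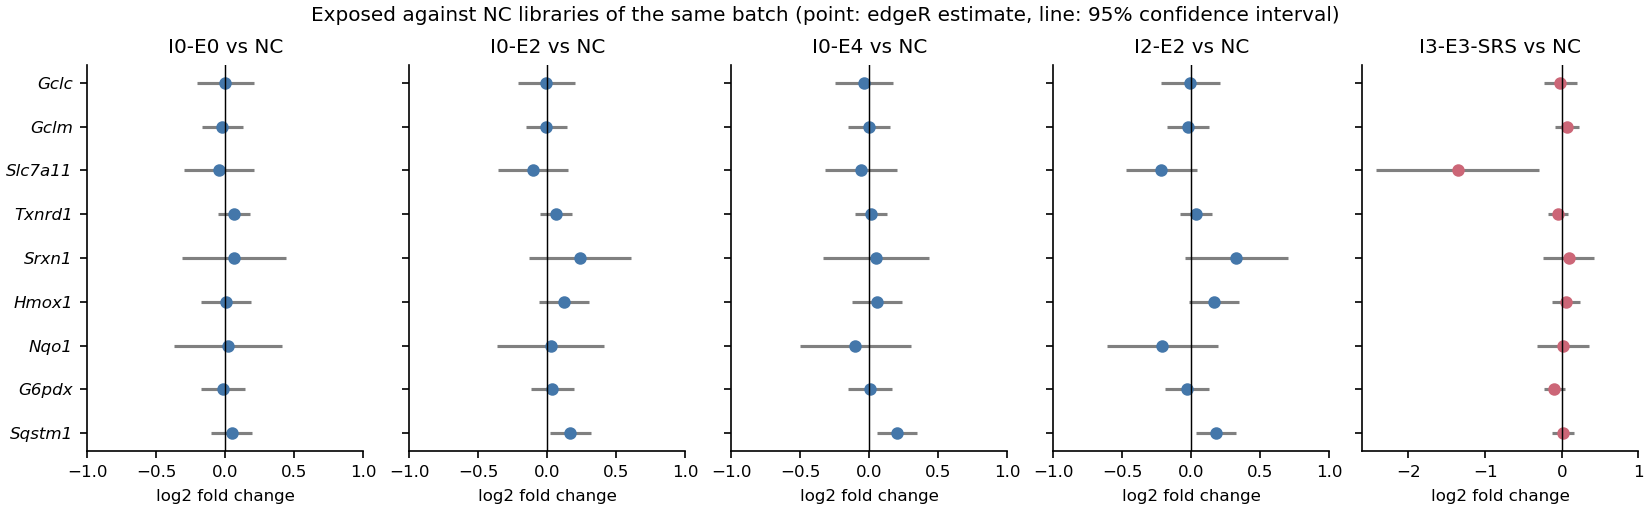
Log2 fold changes of the 9 tested members against the NC libraries of the same batch (horizontal axes; the right panel has a wider scale), with 3 exposed libraries in each panel against 3 NC libraries in batch 1 and 2 in batch 2. Points are edgeR estimates and lines are 95% confidence intervals; Sqstm1 is at 0.17 to 0.20 in I0-E2, I0-E4 and I2-E2, and Slc7a11 is at -1.36 in I3-E3-SRS, where it rests on 1 NC library.

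How often all 3 libraries of a group lay on one side of all NC libraries in CPM was counted over the 9 members and over all genes. In I0-E0 no member lay wholly above or below NC, and 4.49% and 4.45% of all genes did. In I0-E2 and in I0-E4 Sqstm1 alone lay above, where 5.86% and 6.61% of all genes did, and no member lay below, where 5.34% and 6.16% did. In I2-E2 Hmox1 and Sqstm1 lay above and Slc7a11 and Nqo1 below, 2 of 9 each way, where 6.07% and 6.08% of all genes did. These counts are too small to set the members apart from other genes.

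No member passed in the other contrasts of batch 1. With the 4 exposed groups pooled against NC, 0 of 9 members passed (0% of all genes), and the log2 fold changes lay between -0.11 for Slc7a11 and 0.17 for Srxn1, with Sqstm1 at 0.15 (standard error 0.06, adjusted p = 0.808 from edgeR). At equal fluency, the higher intensity of I2-E2 against I0-E2 gave 0 of 9 members (0% of all genes) and log2 fold changes from -0.23 for Nqo1 to 0.09 for Srxn1. At equal dwelling time, I2-E2 against I0-E0 gave 0 of 9 (0% of all genes) and values from -0.23 for Nqo1 to 0.27 for Srxn1. In the trend on fluency 0 of 9 members passed (0% of all genes), and Sqstm1 was the highest of them at 0.20 and Nqo1 the lowest at -0.10. The unadjusted p was under 0.05 for 724, 645, 752 and 894 of all genes in these 4 contrasts, and for the members in Sqstm1 only (the 4 exposed groups together and the trend). DESeq2 called 0, 4, 2 and 0 genes in them and limma-voom called 0.

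In batch 2 the near-burning setting left 8 of the 9 tested members within 0.10 of NC on the log2 scale, and 0 of 9 passed (0% of the 12031 genes tested). Their log2 fold changes lay between -0.10 for G6pdx and 0.09 for Srxn1, and their 95% confidence intervals between 0.800-fold and 1.34-fold. The NC libraries behind these values include the deviating NC batch 2 replicate 1, and the values are given only with it. Hmox1 measured 87.0 and 79.6 CPM in NC and 91.6, 80.0 and 87.4 CPM in I3-E3-SRS. Txnrd1 measured 649 and 613 CPM in NC and 606, 627 and 606 CPM in I3-E3-SRS. For both genes the exposed libraries overlapped NC. The unadjusted p was under 0.05 for 484 genes, DESeq2 called 15, none of them a member, and limma-voom called 0.

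Slc7a11 was the exception in size, and it rested on 1 library. It measured 297 and 77.0 CPM in NC replicates 1 and 2 and 74.1, 71.3 and 70.9 CPM in I3-E3-SRS. The log2 fold change was -1.36 (standard error 0.45, adjusted p = 1.00 from edgeR), and it was -0.10 (standard error 0.09) without NC batch 2 replicate 1. Its size also depended on the method and the unit. It was -0.96 with limma-voom and -0.45 with limma on log2(TPM + 1) (adjusted p = 0.550). In TPM NC replicates 1 and 2 were at 20.84 and 12.69 and the exposed libraries at 11.03 to 12.16. Without replicate 2 it was -2.04 (adjusted p = 3.30e-08 from edgeR), a comparison with the deviating library alone, which was assumed to vary like the exposed ones. Replicate 1 held 1582 estimated reads of the gene, 99.7% of them on Slc7a11-201. Of the 31-base words of Slc7a11 transcripts, 95.7% occur in no other gene. The gene that shares more of the rest than any other is Tuba1a, an abundant tubulin gene. Tuba1a measured 1329 CPM in replicate 1 and 1486 to 1703 CPM in the other 4 libraries of the batch. Its part in the Slc7a11 value was not tested. In CPM G6pdx also lay below both NC libraries in all 3 exposed ones, so 2 of 9 members did. Of all genes 9.06% lay below and 9.27% above. In TPM G6pdx of NC replicate 1, at 84.03, lay below the 3 exposed libraries, at 123.2 to 133.6.

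The largest differences of the pathway lay between the batches, in cells that were not exposed. Against NC of batch 1, 8 of the 9 tested members were higher in NC of batch 2 past the false discovery rate (Slc7a11, Srxn1, Hmox1, G6pdx, Sqstm1, Txnrd1, Gclc and Gclm), Nqo1 was higher without passing, and none was lower. Of the 12118 genes tested 1726 passed, 14.2%. Of these, 964, 7.96% of those tested, passed as higher and 762 as lower. These calls depend on the libraries and the unit. Leaving out any 1 NC library of batch 1 left 6 or 7 members and 461 to 836 genes, and limma on log2(TPM + 1) called 0 members and 121 genes. The median log2 fold change was 0.75 over the members and 0.00 over all genes. In CPM, each of the 5 libraries of batch 2 lay above each of the 15 of batch 1, exposed or not, in all 9 tested members and in 7.17% of all genes. In TPM this held for 3 members, Gclm, Slc7a11 and Sqstm1, and for 1.68% of all genes. Without NC batch 2 replicate 1 it held in TPM for 8 members, all tested ones but Srxn1, and for 4.91% of all genes, a count added after seeing the data. Batch here is the label of the submitters, and everything that differed between the batches, culture, handling, RNA and sequencing, cannot be told apart.

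Srxn1 had the largest difference after Slc7a11 on counts, and the largest of all without NC batch 2 replicate 1 or on TPM values. It measured 11.1, 8.11 and 7.72 CPM in NC of batch 1 and 26.5 and 19.99 CPM in NC of batch 2, a log2 fold change of 1.35 (standard error 0.20, adjusted p = 0.00789 from edgeR), or 2.55-fold. Txnrd1 went from 405 ± 5.22 CPM (SD, n = 3) to 649 and 613 CPM, a log2 fold change of 0.63 (standard error 0.05, adjusted p = 8.72e-04 from edgeR). In CPM the Txnrd1 groups did not overlap. In TPM the NC libraries of batch 2, at 185.9 and 332 TPM, lay on either side of those of batch 1. The log2 difference in TPM was 0.21 (SE 0.28, adjusted p = 0.640 from limma). It was 0.63 with NC batch 2 replicate 1, the library at 185.9 TPM, left out. The I3-E3-SRS libraries of the same batch were at 24.6 ± 1.79 CPM for Srxn1 and 613 ± 12.4 CPM for Txnrd1 (SD, n = 3).

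Of the haem and quinone enzymes, Hmox1 measured 47.2, 44.1 and 49.0 CPM in NC of batch 1 and 87.0 and 79.6 CPM in NC of batch 2. The log2 fold change was 0.83 (standard error 0.08, adjusted p = 0.00184 from edgeR), or 1.77-fold. Nqo1 measured 8.19, 6.90 and 7.11 CPM and then 10.9 and 11.2 CPM, a log2 fold change of 0.57 (standard error 0.17, adjusted p = 0.0595 from edgeR). The Nqo1 libraries, with 46 to 99 reads each, did not overlap in CPM. In TPM they did, and the difference turned to -0.04, where the median of all genes was -0.38. NC batch 2 replicate 1 was at 5.22 TPM and replicate 2 at 12.2 TPM, and without replicate 1 the TPM difference was 0.50. The adjusted p was 0.0381 from edgeR with all 20 libraries fitted together, 0.112 with all but NC batch 2 replicate 1 and 0.171 from DESeq2.

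G6pdx measured 134, 127 and 124 CPM in NC of batch 1 and 225 and 215 CPM in NC of batch 2, with a log2 fold change of 0.77 (SE 0.06, adjusted p = 7.98e-04 from edgeR). Of its 31-base words 76.4% occur in no other gene, and of the genes that share them G6pd2 was at or near 0 in all libraries and Ikbkg, which overlaps it on the opposite strand, was at 31.6 to 34.2 CPM and 33.4 to 50.4 CPM in the NC groups of batch 1 and batch 2. Sqstm1 measured 242, 236 and 252 CPM and then 429 and 394 CPM, with a log2 fold change of 0.75 (SE 0.06, adjusted p = 0.00101 from edgeR). Mrnip, which shares words with Sqstm1, was not higher in batch 2, at 7.16 and 7.33 CPM. The difference of Sqstm1 between the batches, 0.75, stood beside changes of at most 0.20 with exposure in batch 1.

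In the glutathione branch Gclc went from 92.4 ± 2.97 CPM (SD, n = 3) to 125 and 145 CPM, with a log2 fold change of 0.55 (SE 0.07, adjusted p = 0.00544 from edgeR). Of the 31-base words of Gclm 93.2% occur in no other gene, and Gm17494, Ppia and Gm10123 share the most of the rest. Gm17494 was at 0 CPM in both NC groups. Gm10123 was at 435 to 518 CPM in NC of batch 1 and 546 to 808.5 CPM in NC of batch 2. Ppia was at 1615 to 1669 CPM and then 1336 to 1526 CPM. Their part in the Gclm values was not tested. Gclm measured 131, 127 and 125 CPM and then 150.5 and 165 CPM. Its log2 fold change was 0.31 (SE 0.06, adjusted p = 0.0194 from edgeR), the smallest of the 9 on counts. On TPM values it was 0.75, the third largest, and 0.47, again the smallest, with NC batch 2 replicate 1 left out. The Gclm call was lost without NC batch 1 replicate 2 or 3 or NC batch 2 replicate 2 (adjusted p of 0.0834, 0.0650 and 0.0592 from edgeR). Slc7a11 measured 43.1, 38.2 and 36.9 CPM and then 297 and 77.0 CPM, with a log2 fold change of 2.21 (SE 0.48, adjusted p = 0.0267 from edgeR), and the call was lost without any one NC library of batch 1 (adjusted p of 0.0857, 0.107 and 0.0956 from edgeR). It was also lost with limma-voom (log2 fold change 1.80, adjusted p = 0.0807) and with limma on TPM values (1.07, adjusted p = 0.285). Without NC batch 2 replicate 1 the Slc7a11 difference was 0.96 (standard error 0.10, adjusted p = 2.73e-05 from edgeR), or 1.95-fold, and the 3 I3-E3-SRS libraries, at 70.9 to 74.1 CPM, also lay above all 15 libraries of batch 1.

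**Figure D3:**
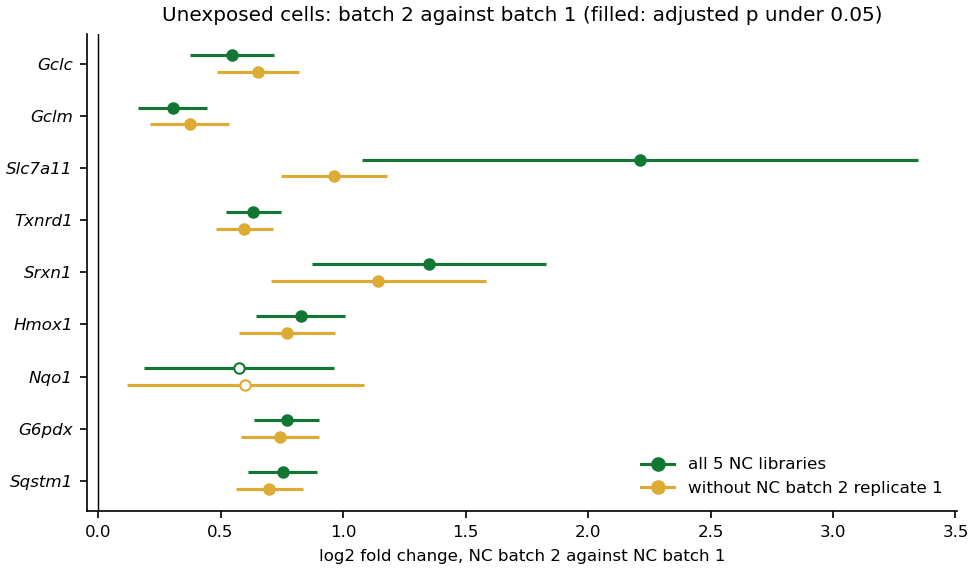
Log2 fold change of the 9 tested members in NC of batch 2 against NC of batch 1 (horizontal axis), with all 5 NC libraries and with NC batch 2 replicate 1 left out. Points are edgeR estimates on counts, filled where the adjusted p was under 0.05, and lines are 95% confidence intervals. All points lie above 0, Slc7a11 moves from 2.21 to 0.96 and Srxn1 from 1.35 to 1.14. On TPM values Nqo1 falls to -0.04, and it is at 0.50 there with NC batch 2 replicate 1 left out.

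Without NC batch 2 replicate 1, the same 8 members were called by edgeR among 1686 of 12529 genes (13.5%, with 7.33% higher), and the remaining NC library was then assumed to vary like the other group. Their log2 fold changes were 0.37 for Gclm, 0.60 for Txnrd1, 0.65 for Gclc, 0.70 for Sqstm1, 0.74 for G6pdx, 0.77 for Hmox1, 0.96 for Slc7a11 and 1.14 for Srxn1. With limma on log2(TPM + 1) the median of all genes shifted to -0.38, and the members lay between -0.04 (Nqo1) and 1.34 (Srxn1) with a median of 0.24. With the deviating library left out of the TPM test, a step chosen after seeing the data, the median of the members was 0.59 against -0.04 for all genes.

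Other known NRF2 targets were also higher in NC of batch 2. Of 34 such genes 28 were tested, and 14 were higher, where 7.96% of all genes were, and 0 lower, with a median log2 fold change of 0.35 against 0.00 for all genes. The ferritin chains Fth1 and Ftl1, which store iron, were at 0.55 and 0.45 (adjusted p of 9.91e-04 and 0.00154 from edgeR), and the haem transporter gene Slc48a1 at 0.70. The NADPH-producing enzymes Idh1, Pgd and Me1 were at 0.79, 0.49 and 0.34, and Taldo1 and Tkt of the pentose phosphate pathway at 0.33 and 0.37. Gsr, which reduces oxidised glutathione, Gss, which completes its synthesis, the glutathione transferase gene Gstp1 and the export pump gene Abcc1 were at 0.36, 0.50, 0.58 and 0.36. Blvrb and Pir completed the 14, at 0.69 and 0.37. The peroxiredoxin genes Prdx1 and Prdx6 and the thioredoxin gene Txn1, which are named as NRF2 targets too, were at -0.08, -0.01 and 0.03 and did not pass. Without NC batch 2 replicate 1, 15 of 28 were higher, where 7.33% of all genes were, and 1, Ugdh, was lower. Of the 14 above, the call of Gss was lost, and those of Ephx1 and Ptgr1 were gained.

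Genes that regulate NRF2 went both ways. Of 11 tested, 4 were higher in NC of batch 2, Bach1 (0.64), Keap1 (0.52), Mafk (0.48) and Nfe2l1 (0.39), and 2 were lower, Rbx1 (-0.30) and Cul3 (-0.21). Of all 12118 genes tested, 7.96% were higher and 762 genes were lower. RBX1 and CUL3 are subunits of the ligase that ubiquitinates NRF2. Without NC batch 2 replicate 1 the 4 higher genes passed and the 2 lower ones did not. Nfe2l2 itself measured 25.2 to 28.6 CPM in NC of batch 1 and 30.2 and 31.2 CPM in NC of batch 2, a log2 fold change of 0.16 that did not pass (standard error 0.09, adjusted p = 0.296 from edgeR). NRF2 is controlled mainly through the stability of the protein, which was not measured here.

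Slc7a11 and several stress genes are also driven by ATF4, the effector of the integrated stress response, and Hmox1 by heat shock. The list of ATF4 targets includes Atf4 itself, which was at 0.35 and is counted among the higher genes. Of 13 tested ATF4 targets 8 were higher in NC of batch 2, against the same 7.96% of all genes, and 0 lower (median 0.35), led by Ddit4, an inhibitor of mTORC1, at 1.19, Sesn2 at 1.00 and the glutathione-degrading enzyme gene Chac1 at 0.92, and without NC batch 2 replicate 1 there were 9. Of 6 tested heat shock genes 0 were higher and 3 lower, the chaperone genes Hsph1 (-0.40), Hspd1 (-0.30) and Hsp90aa1 (-0.25), and without that library 1 was higher and 4 were lower. Of 9 tested neuronal markers Tubb3 was higher (0.44) and Isl1, Gata3 and Elavl4 were lower (-0.88, -0.73 and -0.48). Beside the heat shock genes and these markers, 7.96% of all 12118 genes tested were higher and 762 genes were lower. Among markers of other cell kinds Pdgfra of the fibroblast list, at 2.36 to 6.20 CPM in batch 1, was lower at 1.05 to 1.48 CPM in batch 2, a call between the NC groups that was lost without NC batch 2 replicate 1. Csf1r, at 0 in the 3 NC libraries of batch 1 and at 2.95 and 6.58 CPM in NC of batch 2, was called higher (adjusted p = 0.0108 from edgeR), also without that library. The part of these genes in the differences of the NRF2 targets was not tested.

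**Figure D4:**
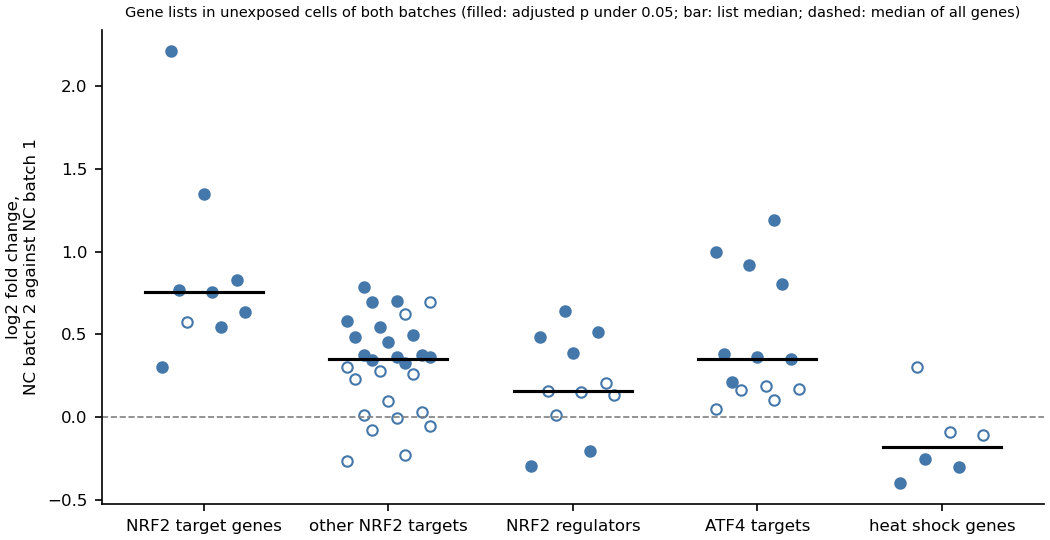
Log2 fold changes in NC of batch 2 against NC of batch 1 (vertical axis) for the 9 tested members, 28 other NRF2 targets, 11 NRF2 regulators, 13 ATF4 targets and 6 heat shock genes. Atf4 itself is counted among the ATF4 targets. Each point is a gene, filled where the adjusted p was under 0.05, bars are list medians and the dashed line is the median of all genes; the medians are 0.75, 0.35, 0.16, 0.35 and -0.18 on counts, and the lists were not tested on TPM values, where the median of all genes was -0.38.

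No gene of these lists passed within a batch. In each of the 9 comparisons within a batch 0 genes of the other NRF2 targets, the NRF2 regulators, the ATF4 targets and the heat shock genes passed the false discovery rate by edgeR. Idh1, a cytosolic NADPH-producing dehydrogenase, had the smallest p among the other targets in I0-E2, I0-E4 and I2-E2, at 33.0 ± 0.637 CPM (SD, n = 3) in NC, 27.4 ± 2.74 in I0-E4 and 26.7 ± 3.21 in I2-E2. Its log2 fold change for the 4 exposed groups together was -0.27 (standard error 0.08, unadjusted p = 0.00304, adjusted p = 0.808 from edgeR), opposite in sign to its difference between the batches. Bach1 was the regulator with the smallest p in I2-E2, at -0.29 (standard error 0.12). Among ATF4 targets Chac1 and Cth, both of sulfur amino acid and glutathione turnover, had the smallest p in I0-E4, at -0.45 and -0.47 (standard errors 0.11 and 0.14, adjusted p = 0.612 from edgeR for both). Hspe1 was the heat shock gene with the smallest p in I0-E4 and I2-E2, at 0.19 in each (standard error 0.11). In I3-E3-SRS Gsk3b, Pir, Sesn2 and Hspd1 had the smallest p of the 4 lists, at -0.20, 0.19, -0.27 and 0.06.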

How the data were processed

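Estimated counts and TPM values of each transcript in 20 libraries were deposited by the authors as Salmon output, with no version given in the submitters' processing notes. The deposited expected counts are not whole and not normalized between libraries, and the deposited TPM values divide them by effective length and scale them to a fixed sum. No source used here gives the genome build, the transcript release or the read layout. GENCODE vM21 held 98.6% of the transcript identifiers, and unmatched transcripts, with 0.664% to 0.748% of the counts, were left out. Counts were summed over the transcripts of a gene and rounded.

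Genes were filtered with filterByExpr (minimum count 10), scaled by TMM and tested with edgeR's quasi-likelihood test, with group as the only factor, in 15 libraries of batch 1 (12296 genes), 5 of batch 2 (12031) or the 5 NC libraries (12118). The common biological coefficient of variation was 8.26%, 11.5% and 11.5%. P-values were adjusted by Benjamini-Hochberg over all genes tested at 0.05. Printed CPM use 1 scaling of all 20 libraries. On simulated data the test recovered 58.5% of genes changed 1.5-fold in I2-E2, 35.0% in I3-E3-SRS and 31.5% between the NC groups. Alternatives were other scalings, no filter, DESeq2, limma-voom, limma on log2(TPM + 1) and log2(TPM + 0.1), a replicate block, other sets of libraries and each library left out. Tests ran under R 4.3.3 (DESeq2 1.42.0, limma 3.58.1, edgeR 4.0.16), and tables and figures under Python 3.11.15 (pandas 2.3.3, scipy 1.17.1, numpy 2.4.6, matplotlib 3.10.9).

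The members and the lists were chosen with earlier results of these data known. All members are named in every comparison where they were tested, and from each list the genes that passed or, where none did, up to 2 with the smallest p. Genes outside this rule were picked with their values known. Shared sequence was measured as 31-base words found in other genes. Promoter windows came from RefSeq on GRCm38.p6.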

Additional observations from a re-analysis of the deposited data

How the results depend on the processing

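Under all alternatives, 0 members passed within batch 1, and between the batches 6 to 9 passed on counts. In I3-E3-SRS 1 member, Slc7a11, passed with no filter on low counts (log2 fold change -1.35) and without NC batch 2 replicate 2, and 0 to 1 passed when single libraries were left out. Between the NC groups 0 members passed with limma on log2(TPM + 1) or log2(TPM + 0.1), 4 on log2(TPM + 1) with NC batch 2 replicate 1 left out, and 6 to 8 with single libraries left out. The cause of the difference between counts and TPM was not tested.

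All genes called moved from 0 with no filter on low counts to 110 (I0-E0), 46 (I0-E2), 172 (I0-E4), 160 (I2-E2), 108 (all 4 exposed groups), 125 (I2-E2 against I0-E2), 91 (I2-E2 against I0-E0), 134 (trend) and 194 (I3-E3-SRS). DESeq2 called 1, 1, 4, 2 and 15 in I0-E0, I0-E4, I2-E2 against I0-E2, I2-E2 against I0-E0 and I3-E3-SRS. Library totals gave 1 for I2-E2 against I0-E0, and a fit of the 2 groups alone gave 2 for I2-E2 against I0-E2. With single libraries left out the counts were 0 to 1 in I0-E0, I0-E2 and I0-E4, 0 to 2 in I2-E2 and the other contrasts of batch 1 but the trend (0), and 0 to 671 in I3-E3-SRS, which had 1 and 7 on log2(TPM + 1) and log2(TPM + 0.1) and 4 on log2(TPM + 1) with NC batch 2 replicate 1 left out. Between the NC groups there were 1726 in the main test, 121 and 96 on log2(TPM + 1) and log2(TPM + 0.1), 306 on log2(TPM + 1) with that library left out, 1120 in all other 19 libraries and 461 to 2241 with single libraries left out.

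With the replicate number as a block, 0 members were called within the batches and 7 between the NC groups (Gclm lost, adjusted p = 0.0937 from edgeR), with 6 genes in I3-E3-SRS and 801 between the NC groups. Samples of an NC group and of another group with the same number did not deviate together (correlations of -0.08 to 0.13). Exposed groups were not compared with each other in this way. Whether the number marks a shared culture or preparation is not in the labels.

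Of 1836 alternative values of single members within the batches 1756 stayed short of the threshold and within 1 standard error of the main value, 78 moved by more, and the 2 of Slc7a11 given above passed the threshold. The depth limits Srxn1 and Nqo1, with 29 to 280 reads a library, and Osgin1, with 0 to 8.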

Other observations

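Txnrd1 has several start sites, and the split of its reads between transcripts also differed between the batches. Txnrd1-208, a coding transcript of 2297 bases, took 12.9% to 21.2% of the Txnrd1 reads in the 15 libraries of batch 1 and 28.2% to 30.4% in the 5 libraries of batch 2. Txnrd1-206, of 3531 bases, took 12.8% to 30.3% in batch 1, 12.8% in NC batch 2 replicate 2, 11.8% to 13.2% in I3-E3-SRS and 4.40% in NC batch 2 replicate 1. Txnrd1-201, the most abundant, took 48.2% to 68.5% in batch 1 and 53.6% to 59.2% in batch 2, which overlap. For Gclm the longest transcript, Gclm-201, took 40.3% to 52.3% of the reads in batch 1, 37.7% in NC batch 2 replicate 2, 35.3% to 41.5% in I3-E3-SRS and 25.8% in NC batch 2 replicate 1. These shares are estimates of Salmon that depend on its effective lengths, which also differed between the batches, and the differences in shares were not tested.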
